A study of Mus musculus with 2 samples.

Results

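The regions described here were the shorter H2BK120ub peaks on human chromosomes 16, 17 and 22, which are known as gene-dense chromosomes. A peak was taken as a member when it was at most 10000 bp long and had its midpoint more than 2 Mb from both ends of its chromosome (hg19 lengths). By this rule, the WT list gave 6946 members among its 101866 peaks and the UBR7-KO list gave 9581 among 127444, in total 16527 of 229310. Peaks over 10000 bp are called long peaks below.

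Chromatin immunoprecipitation followed by sequencing (ChIP-seq) of H2BK120ub was carried out in liver primary cells of 2 genotypes, wild type (WT) and a knockout labelled Alb; Cre-UBR7fl/fl, called UBR7-KO here, with 1 library each. In UBR7-KO, Cre recombinase under the albumin promoter deletes the floxed UBR7 gene, so that deletion is directed to hepatocytes and other cells of the liver keep the gene. Both cultures were conditionally immortalized and grown in the same serum-containing medium, and pooling of animals was not stated. Per the study's methods, primary liver cells came from male mice of C57BL/6 background that were 8 weeks old. Since each genotype had 1 library, the differences below have no replicate error, no test between genotypes was run and no p-value is given.

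H2BK120ub is histone H2B carrying a single ubiquitin on a lysine near its C-terminal end. The mark is placed behind elongating RNA polymerase II, mostly by the E3 ligase pair RNF20 and RNF40, and it is removed by deubiquitinating enzymes. It is therefore known to spread over the bodies of transcribed genes, where a peak caller can return one long interval or several short ones. UBR7 is another E3 ligase that has been reported to monoubiquitinate H2B at this residue.

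The label of the samples and the positions of the peaks did not match. The samples were labelled as mouse, whereas the submitters' processing notes name hg19, and 1328 WT and 1779 UBR7-KO members lay on chromosome 22, a chromosome on which the mouse gene table holds 0 genes. Peaks are therefore given by hg19 position. Genes, promoters and sequences at the members were not analysed here, and neither the gene density of these chromosomes nor the liver identity of the cells could be checked.

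Shorter peaks were more numerous and covered more of chromosomes 16, 17 and 22 in UBR7-KO, while long peaks covered less. There were 32.9 members per Mb in WT and 45.4 in UBR7-KO, a ratio of the numbers of 1.38. Members covered 19.6 Mb (9.27% of the inner chromosomes) in WT and 24.8 Mb (11.8%) in UBR7-KO, a ratio of 1.27. In the same stretches, 1312 long peaks of WT covered 28.3 Mb and 864 long peaks of UBR7-KO covered 15.2 Mb, a ratio of 0.538. Members thus made up 40.9% of all inner peak length in WT and 62.0% in UBR7-KO. The directions were the same over all chromosomes. There the ratio was 1.31 for the number of shorter peaks and 0.499 for the length covered by long peaks. Shorter peaks of all chromosomes made up 59.2% of inner peak length in WT and 77.3% in UBR7-KO.

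The direction of the first 2 ratios depended on the fold enrichment. Fold enrichment was given by the authors' peak caller. It is taken here as the pileup of sequenced fragments at a peak plus 1, over the local background of the same library plus 1. Among peaks of at least 2.5-fold, 1055 WT and 820 UBR7-KO members remained, and the ratio turned to 0.777 for the number and to 0.408 for the covered length. When the pileup had to reach 3 times the background, 1491 WT and 3510 UBR7-KO members remained, with ratios of 2.35 and 1.89. The 1 added in the fold enrichment weighs more at a low background. The median background recovered at members was 2.49 in WT and 1.59 in UBR7-KO. At these medians the 2.5-fold filter asked for a higher ratio of pileup to background in UBR7-KO. Most members were weak peaks, with a median fold enrichment of 2.19 in WT and 2.15 in UBR7-KO, and 84.8% and 91.4% of them were under 2.5.

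All 3 chromosomes showed more members in UBR7-KO, with number ratios of 1.37 on chromosome 16 (2842 and 3890 members), 1.41 on chromosome 17 (2776 and 3912) and 1.34 on chromosome 22 (1328 and 1779). The covered length rose less on chromosome 22. Its ratio was 1.18, against 1.28 on chromosome 16 and 1.31 on chromosome 17. Among the 22 autosomes and X, chromosome 17 had the highest ratio of length covered by shorter peaks and chromosome 16 the next highest, whereas chromosome 22 was at rank 12 of 23. Over shorter peaks of all chromosomes the ratio was 1.17, and on chromosomes 4, 13 and 18, known as gene-poor, it was 1.15.

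Members were longer than shorter peaks over all chromosomes, although those of chromosome 19 were longer still, with medians of 2632 bp for WT and 2250 bp for UBR7-KO. WT members had a median length of 2036 bp, with quartiles at 894.25 and 4078.75 bp. UBR7-KO members had a median of 1803 bp, with quartiles at 787 and 3700 bp. On chromosomes 4, 13 and 18 the medians were 1134 and 1035 bp, and over all chromosomes 1403 and 1277 bp. Chromosome 22 had the longest members of the 3, and their median was 2588.5 bp for WT against 2164 bp for UBR7-KO. The limit of 10000 bp cut through a continuous range of lengths. The WT peaks next to it measured 9988 and 10001 bp, and the UBR7-KO peaks 9997 and 10015 bp. In the 1000 bp below the limit there were 141 WT and 176 UBR7-KO members, and in the 1000 bp above it 155 and 135 long peaks.

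Next, the covered share was followed along the chromosomes in bins of 1 Mb. Of the inner bins, 184 held a peak, and 26 held none in either list (10 on chromosome 16, 2 on chromosome 17 and 14 on chromosome 22). The empty bins of chromosome 16 lay in a peak-free stretch of 11.2 Mb (chr16:35275467-46447834), and those of chromosome 17 in one of 3.04 Mb (chr17:22240752-25282674). On chromosome 22 the first peak began at 16096711. Members covered a median of 10.9% of a bin in WT (range 1.02% to 24.8%) and 14.2% in UBR7-KO (range 0.391% to 26.7%). The order of the bins was similar in both lists, with Spearman's rho of 0.70 across the 184 bins for members and 0.89 for long peaks. Bins on a chromosome are not independent, and the lists share mappability and base composition at each bin.

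UBR7-KO had the larger covered share in 138 of 184 bins. These were 53 of 76 bins on chromosome 16, 62 of 75 on chromosome 17 and 23 of 33 on chromosome 22. In 51 bins the UBR7-KO share was over 1.5 times that of WT, and in 5 bins, all on chromosome 16, the WT share was over 1.5 times that of UBR7-KO.

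**Figure D1:**
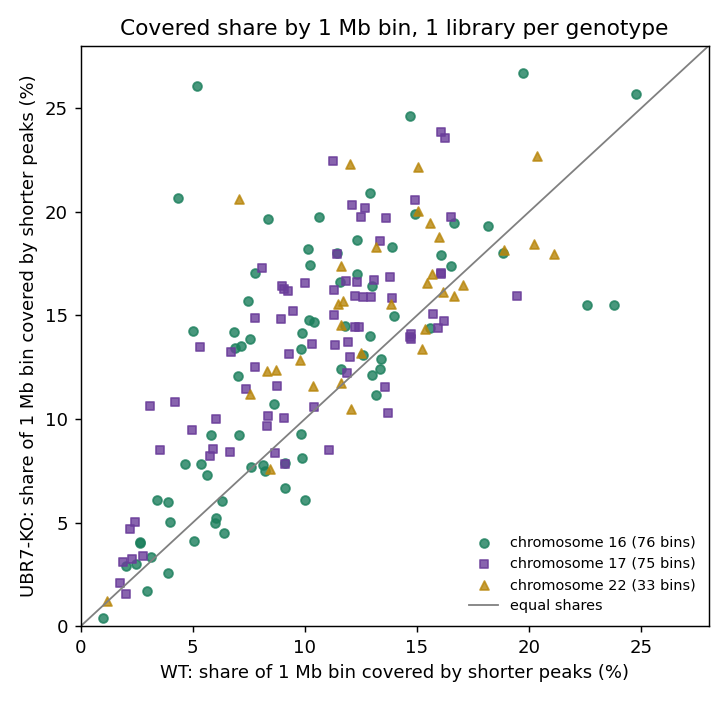
Share of each 1 Mb bin covered by shorter peaks in WT (horizontal axis, %) and in UBR7-KO (vertical axis, %), with 1 point per bin, symbols by chromosome, and a line where the shares are equal. Of the 184 bins, 138 lie above the line, and 2 bins of chromosome 16 with a WT share near 5% stand far above it.

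Members covered more in UBR7-KO whether a bin was poor or rich in long peaks. In the 41 bins without WT long peaks, the total length covered by members was 1.46 times as large in UBR7-KO, and in the 38 bins where WT long peaks covered over 30% it was 1.20 times as large. In points of covered share, the median difference was smaller in the first class than in the second, with 1.07 and 2.74. When the bins were sorted by UBR7-KO long peaks instead, the ratio was 1.31 in the 44 bins without them, 1.30 in the 85 with up to 10%, 1.20 in the 49 with 10% to 30% and 1.28 in the 6 above.

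Chromosome 16 held the bin with the greatest rise. In the bin chr16:17000001-18000000, 30 members covered 5.18% in WT and 88 members covered 26.1% in UBR7-KO, and 6.44% of the UBR7-KO member length lay in WT peaks of any length, which covered 6.21% of the bin. Long peaks covered 1.03% and 1.37% of this bin. A similar rise was found at chr16:77000001-78000000, a bin named after its values were seen, where 25 members covering 4.35% in WT stood against 92 covering 20.7% in UBR7-KO, with 0 bases in long peaks of either list. The greatest fall was at chr16:11000001-12000000, from 23.8% (57 members) to 15.5% (44 members), together with long peaks that fell from 20.5% to 6.95%, so that members and long peaks thinned together there. The bin most covered in WT, chr16:86000001-87000000, was about as covered in UBR7-KO, with 24.8% and 25.7%. The bin most covered in UBR7-KO, chr16:49000001-50000000, went from 19.7% to 26.7%.

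On chromosome 17 the greatest rise and the greatest fall of a bin were smaller than on chromosome 16. The greatest rise was at chr17:3000001-4000000, from 11.3% (37 members) to 22.4% (54 members), where long peaks went from 30.9% to 14.6%. The bin most covered in UBR7-KO, chr17:7000001-8000000, went from 16.1% to 23.8%, and its long peaks from 43.9% to 23.03%. In these 2 bins, 57.8% and 63.0% of the UBR7-KO member length lay in WT peaks, which covered 42.2% and 60.01% of them. The bin chr17:41000001-42000000 was the most covered in WT and had the greatest fall, from 19.5% to 15.9%.

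On chromosome 22 the bin chr22:28000001-29000000 rose from 7.07% (36 members) to 20.6% (70 members), with 16.6% of the UBR7-KO member length in WT peaks that covered 17.8% of the bin. The bin most covered in WT, chr22:45000001-46000000, also had the greatest fall, from 21.1% to 17.97%. The bin most covered in UBR7-KO, chr22:48000001-49000000, held 51 members in WT and 84 in UBR7-KO, yet their shares were close, with 20.4% and 22.7%.

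Over the 3 chromosomes, the UBR7-KO share was more than 2 times the WT share in 15 bins, 7 on chromosome 16, 7 on chromosome 17 and 1 on chromosome 22. They held 446 WT and 951 UBR7-KO members. WT peaks of any length covered a mean of 7.66% of these bins, which were chosen for a low WT share, and 13.8% of the UBR7-KO member length in them lay in WT peaks.

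Windows of 50 kb were then used to find where members of 1 list stood alone, a description chosen after the bins were seen. Members covered at least 30% of 263 of 4216 windows in WT and of 379 in UBR7-KO. In 41 of these WT windows (15.6%) and 82 of these UBR7-KO windows (21.6%), the member share was over 3 times the share covered by peaks of any length of the other list. Such windows formed a run of at least 3 in 3 places. Neither the windows nor the runs were counted on other chromosomes, so whether they set members apart from other shorter peaks was not tested. At chr16:17700001-17900000, 25 UBR7-KO members with a median length of 2111 bp covered 38.0%, against 4.63% for WT. On chromosome 22, 12 UBR7-KO members covered 39.3% of chr22:28500001-28650000, against 0.621% for WT, and 12 WT members covered 38.7% of chr22:27850001-28000000, against 6.19% for UBR7-KO. Median fold enrichment was 2.16 and 2.12 in the UBR7-KO runs, near the median of all UBR7-KO members, and 2.37 in the WT run, above that of all WT members. No long peak of the other list touched the runs. The chromosome 22 runs thus lay close together but belonged to opposite lists.

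Spacing to long peaks was measured from the edge of a member to the nearest edge of a long peak of its own list. Within 10 kb of a long peak lay 1322 WT members (19.03%, 95% Wilson interval 18.13 to 19.97) and 1026 UBR7-KO members (10.7%, interval 10.1 to 11.3). The order turned when peaks within 5000 bp were merged first, to 9.36% and 12.4%. The shares over shorter peaks of all chromosomes were 8.11% and 4.19%. Such intervals account for counting error alone, and peaks next to each other are related. Since long peaks are more common on these chromosomes, the share of uncovered bases within 10 kb of a long peak was taken for comparison, and it was 9.30% in WT and 6.88% in UBR7-KO. Members were thus near long peaks 2.05 and 1.56 times as often as uncovered bases. No allowance was made for the length of a member or for the smallest gap between peaks. The uncovered bases included the peak-free stretches, where no member lay, and this raises the ratios. On chromosomes 4, 13 and 18 these ratios were 2.96 and 1.96, from shares of 3.10% and 1.26%.

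WT members had a median distance of 76635.5 bp to a long peak, against 123536 bp for UBR7-KO members. Chromosome 22 had the closest spacing, with 28.3% of WT and 17.1% of UBR7-KO members within 10 kb and median distances of 33912 and 61193 bp. Chromosome 16 had the widest, with 15.5% and 6.99% within 10 kb and medians of 137490 and 216680.5 bp. No member lay closer than 1170 bp to a long peak in WT or 1097 bp in UBR7-KO. Against the long peaks of the other list, 13.9% of WT members and 23.4% of UBR7-KO members lay within 10 kb or overlapped.

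**Figure D2:**
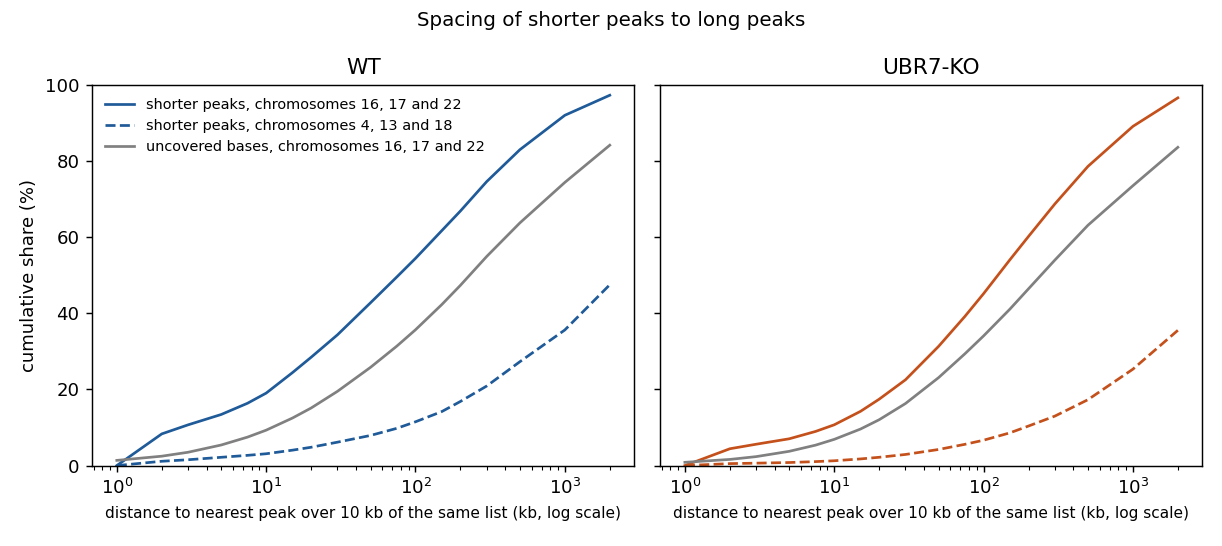
Cumulative share (%) of shorter peaks by distance to the nearest long peak of the same list (kb, log scale) for WT on the left and UBR7-KO on the right, with chromosomes 16, 17 and 22 as solid lines, chromosomes 4, 13 and 18 as dashed lines and uncovered bases of chromosomes 16, 17 and 22 in grey. At 50 kb the solid lines reach 42.8% in WT and 31.3% in UBR7-KO, above the grey lines at 25.8% and 23.1% and far above the dashed lines.

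Members close to a long peak were longer and were found more often in the other list. In WT the median length fell from 4515 bp for the 578 members within 2000 bp of a long peak to 934 bp for the 554 members over 1 Mb away, and the share with a counterpart fell from 62.8% to 28.5%. In UBR7-KO the length fell from 3633 to 1053 bp and the share from 78.3% to 23.7%. Since longer members meet other peaks more easily, length and distance were not separated here. Of the UBR7-KO members within 2000 bp of a long peak, 56.3% overlapped a WT long peak, against 26.3% in the other direction. Shorter peaks of the other autosomes and X showed a similar pattern, with 55.3% and 20.7%. Between the same distance classes, their share with a counterpart fell from 57.2% to 28.6% in WT and from 79.5% to 22.7% in UBR7-KO.

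The lists were then matched, with an overlap of at least 1 bp with any peak of the other list as a counterpart. Of the WT members, 3176 (45.7%, interval 44.6 to 46.9) had a counterpart, against 35.9% of shorter WT peaks on all chromosomes. Of the UBR7-KO members, 4035 (42.1%, interval 41.1 to 43.1) had one, against 31.7% on all chromosomes. UBR7-KO peaks covered 18.98% of the inner chromosomes and WT peaks covered 22.7%. By length, 36.2% of the bases in WT members and 41.0% of those in UBR7-KO members lay in peaks of the other list, 1.91 and 1.81 times the covered shares. On chromosomes 4, 13 and 18 the matched shares were lower, at 31.8% and 26.6%, but stood 4.27 and 4.32 times above the covered shares in bases. The covered shares were taken over all inner bases, peak-free stretches included, and this raises such ratios.

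The match varied with peak strength. Among peaks of at least 2.5-fold in both lists, 7.20% of WT members and 10.98% of UBR7-KO members had a counterpart. In WT as deposited, the share with a counterpart went from 39.1% among the 1737 members with the lowest fold enrichment to 54.7% among the 1736 with the highest. In UBR7-KO, split in the same way into 4 classes, the share was 41.7% in the lowest and 40.9% in the highest, where the median length was 1193 bp instead of 2318.5 bp. When only the strongest peaks of the longer list were kept to give lists of equal size, the WT share dropped to 36.6% and the UBR7-KO share was 42.3%.

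Chromosome 22 differed from chromosomes 16 and 17 in the direction of the match, although its intervals overlapped. Its UBR7-KO members had counterparts more often than its WT members, with 51.6% (interval 49.3 to 53.9) and 48.9% (46.2 to 51.6). The order was the same for shorter peaks of chromosome 19, with 56.9% in UBR7-KO and 51.2% in WT. On chromosome 16 the shares were 37.3% in UBR7-KO and 43.8% in WT, and on chromosome 17 they were 42.6% and 46.2%. With long peaks left out as counterparts, the order on chromosome 22 was the same as on the others, with 31.3% in UBR7-KO and 41.4% in WT.

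The share with a counterpart rose with peak length. It went from 25.6% of WT members up to 500 bp to 68.6% of those over 5000 bp, and from 20.1% to 71.9% in UBR7-KO. At equal length the gap to chromosomes 4, 13 and 18 was clear for short members and small for the longest. Up to 500 bp these chromosomes had 17.5% in WT and 14.8% in UBR7-KO, and over 5000 bp they had 67.9% and 67.3%. The chromosomes also differ in covered share, and its part in the gap was not tested.

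**Figure D3:**
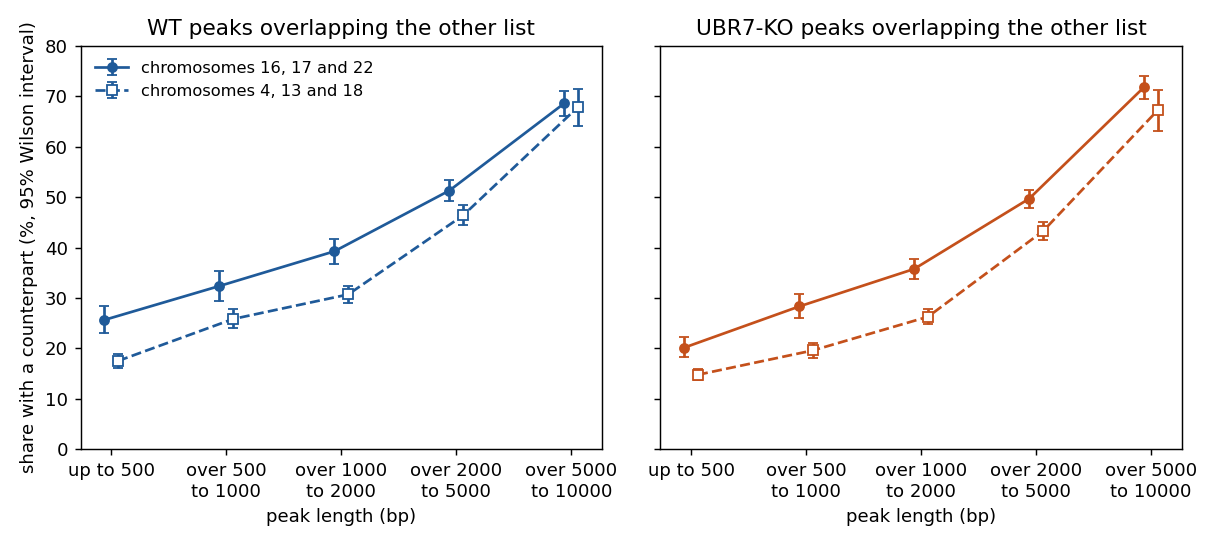
Share of shorter peaks with a counterpart in the other list (%, bars are 95% Wilson intervals) by peak length class (bp), for WT on the left and UBR7-KO on the right, with filled points for chromosomes 16, 17 and 22 and open points for chromosomes 4, 13 and 18. The lines rise from 25.6% to 68.6% in WT and from 20.1% to 71.9% in UBR7-KO, and the open points lie below the filled ones, with overlapping intervals in the longest class.

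The members met shorter and long peaks of the other list. Among WT members, 2682 met only shorter peaks, 448 only long peaks, 46 both and 3770 none. Among UBR7-KO members, 2695 met only shorter peaks, 1259 only long peaks, 81 both and 5546 none. A long peak of the other list was thus met by 7.11% of WT and 13.99% of UBR7-KO members, and 287 and 918 of them lay wholly inside it. Over shorter peaks of all chromosomes, these shares were 2.61% and 5.89%. The long peaks of UBR7-KO and WT covered 7.21% and 13.4% of the inner chromosomes. Those are shares of bases, whereas a member was counted here after any overlap, so the measures cannot be compared directly. By length, members covered more of the other list's long peaks than of the inner chromosomes, as given below. Members without a counterpart were often near one. Their median distance to the nearest peak of the other list was 5381.5 bp for WT, against 7089 bp for UBR7-KO, and 72.3% and 61.6% lay within 10 kb.

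Seen from the long peaks, 799 of 1312 WT long peaks (60.9%) overlapped a UBR7-KO member, and 380 (29.0%) overlapped at least 2. Members were the only UBR7-KO peaks in 524 WT long peaks, 275 held both members and long peaks, 316 held only long peaks and 197 held none. In the other direction, 351 of 864 UBR7-KO long peaks (40.6%) overlapped a WT member, and 130 (15.0%) overlapped at least 2. These counts depend on the length of long peaks and the density of members, and no expected count was computed. By length, UBR7-KO members covered 17.8% of WT long peaks, against 11.8% of the inner chromosomes. WT members covered 12.6% of UBR7-KO long peaks, against 9.27% of the inner chromosomes. The WT long peak with the most UBR7-KO members was chr17:17639572-17760534, which spans 120963 bp and held 8 members that covered 30.7% of it. The UBR7-KO long peak with the most WT members was chr16:30917288-30947517, where 4 members covered 58.9% of 30230 bp.

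UBR7-KO members lay somewhat more often toward both ends of WT long peaks, and WT members toward the lower-coordinate end of UBR7-KO long peaks. Of 1340 UBR7-KO members that met a WT long peak, 1208 had their midpoint inside the long peak with which they shared the most bases. The outermost 20% of the length at either end held 45.9% of them together, where an even spread would give 40%, and the middle 20% held 16.8%. Of 494 WT members that met a UBR7-KO long peak, 418 had their midpoint inside it in the same way. For these WT members the shares were 46.9% and 15.1%, but the ends were unequal. In steps of 10% of the length, the lower-coordinate end held 12.4% and 15.1%. The higher-coordinate end held 10.3% and 9.09%, where an even spread would give 10% per step. No interval was computed for these shares. An even spread also takes no account of long peaks of the members' own list that lie in the same intervals.

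**Figure D4:**
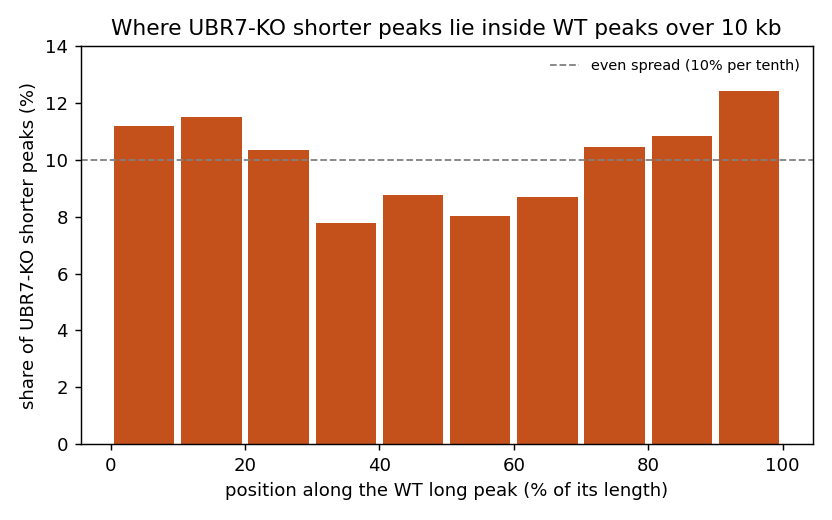
Share of UBR7-KO shorter peaks (%) by the position of their midpoint along the WT long peak they overlap, in steps of 10% of its length from the lower to the higher coordinate, for 1208 peaks, with a dashed line at the 10% of an even spread. The bars at the ends hold 11.2% and 12.4%, and the bars from 30% to 70% hold between 7.78% and 8.77%.

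There were 2115 pairs of 1 WT and 1 UBR7-KO member that met no further peak, and their intervals agreed loosely. They took in 30.4% of WT and 22.1% of UBR7-KO members. The WT peak of a pair had a median of 2389 bp, the UBR7-KO peak 2293 bp, and WT was the longer in 50.9% of pairs. On chromosome 22, WT was the longer in 59.2% of 402 pairs. The shared bases were a median of 39.8% of the bases in either peak and passed 50% in 783 pairs. Across pairs, Spearman's rho was 0.33 for length, 0.15 for fold enrichment and 0.73 for the background recovered from pileup and fold enrichment.

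The pairs with the most shared bases were close to identical intervals. On chromosome 16 the WT peak chr16:55686396-55695008 lay inside the UBR7-KO peak chr16:55686164-55696116 and shared its 8613 bp. On chromosome 17, chr17:26797150-26806981 in WT and chr17:26796845-26806283 in UBR7-KO shared 9134 bp. On chromosome 22, chr22:44720483-44730175 in WT and chr22:44720291-44729956 in UBR7-KO shared 9474 bp, which is 95.8% of the bases in either. Fold enrichment in these 3 pairs was 2.58 and 2.30, 2.10 and 2.22, and 2.23 and 2.49 in WT and UBR7-KO, respectively.

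The members of highest fold enrichment measured between 287 and 1937 bp, and the rank of their counterparts among the other list's members ran from 24 to 5454. By fold enrichment the top WT member was chr17:59054193-59055130, with 4.78-fold and a pileup of 14.6, and its UBR7-KO counterpart had 2.29-fold and rank 2408 of 9581. The next on chromosome 17, chr17:57248563-57250499, had 4.16-fold in WT and 2.12-fold in UBR7-KO. On chromosome 16, chr16:32289762-32290256 had 4.21-fold in WT and 2.496-fold in UBR7-KO, and chr16:32051155-32051772 had 4.13-fold and 2.18-fold. Since these sites were chosen for their WT values, a lower rank in UBR7-KO follows from the choice. On chromosome 22, chr22:25678052-25679624 had 3.58-fold in WT and 2.99-fold in UBR7-KO. The WT member chr22:19762857-19764311, which had the highest WT pileup of its chromosome (12.01) and 3.48-fold, lay inside a UBR7-KO long peak of 49604 bp.

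In UBR7-KO the top member, chr16:33963002-33963466, had 4.31-fold and a pileup of 236.86. Its WT counterpart, chr16:33961248-33966630, had the highest WT pileup of chromosome 16, at 40.8, but 2.38-fold. The recovered background was 54.1 at the UBR7-KO peak and 16.6 at the WT peak, far above the member medians of 1.59 and 2.49. Both lie before the peak-free stretch of chromosome 16. The UBR7-KO member chr16:29248402-29248761 kept a high rank in WT, with 4.24-fold and 3.56-fold, and so did chr22:21823613-21824145, with 3.84-fold and 3.23-fold. In contrast, the UBR7-KO members chr17:22139597-22139883 (3.92-fold) and chr17:29678455-29678816 (3.73-fold) had no counterpart, with the nearest WT peak 22534 and 5935 bp away. The members of highest pileup on chromosome 17 also had a high recovered background, of 46.6 in WT and 31.1 in UBR7-KO. They were chr17:41399875-41401182 in WT, with a pileup of 103.68 and 2.20-fold but no counterpart, and chr17:31149591-31151031 in UBR7-KO, with 88.05 and 2.78-fold against 61.2 and 2.17-fold in WT. On chromosome 22 the remaining named UBR7-KO members, chr22:37099081-37100856 (3.45-fold) and chr22:39104354-39105335 (3.34-fold, highest pileup at 8.7), had WT counterparts of 2.34-fold and 2.15-fold. Of the 16 named members, 13 had a counterpart.

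The background under the members changed in a step along chromosomes 16 and 17, at nearly the same place in both libraries. The background was recovered at each member from its pileup and fold enrichment, and the place that best divides a chromosome into a lower and a higher stretch was sought in each list, a description chosen after the values were seen. On chromosome 17 the division fell between 43 and 44 Mb in both lists, 9.55 kb apart. The median background was 2.41 fragments before and 3.61 after it in WT, a ratio of 1.496, and 1.55 and 2.25 in UBR7-KO, a ratio of 1.45. On chromosome 16 the division fell between 80 and 81 Mb, 121 kb apart, with a ratio of 1.59 in both lists. On chromosome 22 the best divisions fell in different places, with ratios of 1.07 in WT and 0.832 in UBR7-KO.

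Pileup rose with the background, and median fold enrichment was level across the step. The lowest fold enrichment of any deposited peak was 2.0 in both lists. Peaks close to this floor have a pileup tied to their background, so the level medians follow in part from the floor. On chromosome 17 the pileup ratio was 1.39 in WT and 1.32 in UBR7-KO, while median fold enrichment was 2.19 before and 2.17 after in WT and 2.15 on both sides in UBR7-KO. The density of members moved in opposite directions on the 2 chromosomes. Beyond the step, members covered less of chromosome 17 (11.3% before and 8.32% after in WT) and more of chromosome 16 (8.21% and 13.2%). Chromosome 17 had the highest median background of shorter peaks among the autosomes and X in both lists. Raw pileups of members on either side of the step are not comparable, and the cause of the step was not tested. Without the members beyond the steps, the number ratio was 1.36 and the covered ratio 1.25, and 46.1% of WT and 42.3% of UBR7-KO members had a counterpart.

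**Figure D5:**
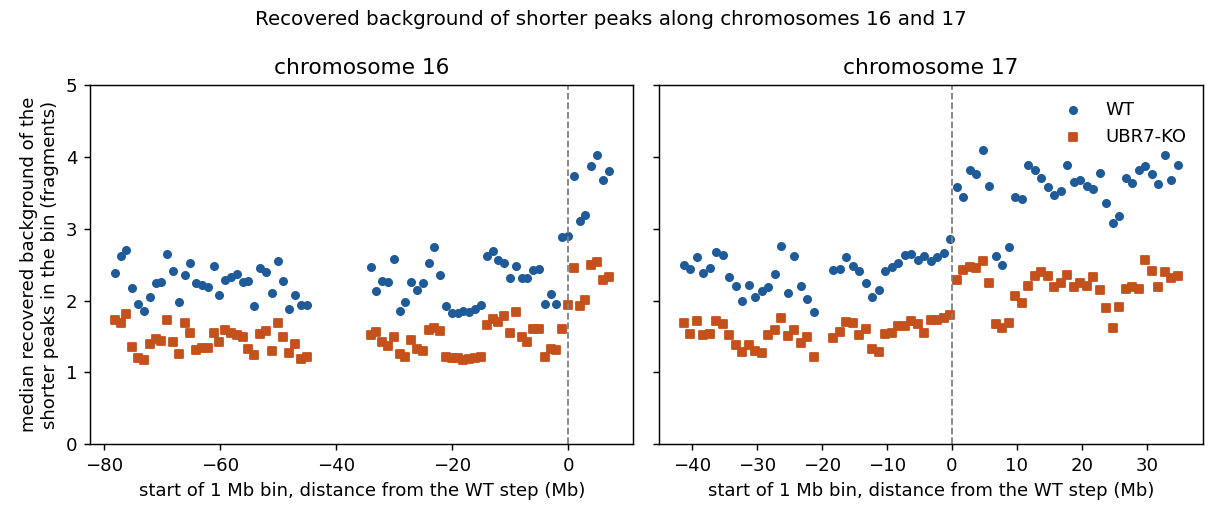
Median recovered background of the shorter peaks in each 1 Mb bin (fragments) by the distance of the bin from the WT step (Mb), for chromosome 16 on the left and chromosome 17 on the right, with WT as circles and UBR7-KO as squares and a dashed line at the step. On chromosome 17 the WT bins lie between 1.84 and 2.75 before the step and between 2.49 and 4.10 after it, and the UBR7-KO bins rise at the same place. The bin that holds the step is plotted but left out of these ranges.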

How the data were processed

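Members, bins and lists were chosen with earlier results of these data known. Per the study's methods, the authors aligned reads with BWA to hg19 and called peaks per library with MACS under a q-value threshold of unstated value, whereas the submitters' processing notes name Bowtie 1.1.2. The study's methods name rabbit IgG in the immunoprecipitation but do not say whether it was sequenced as a control library. They also describe peak lists that kept repeated peaks, whereas each genotype had 1 library here. The broad or narrow mode was not given in the sources used here. The deposited pileup is a signal, the fragments stacked over a peak. The deposited fold enrichment is a ratio of pileup to local background, taken here with 1 added to both. Total reads are unknown, so pileups were not compared between libraries as levels of the mark. The deposited positions and lengths, in bp and of the unit other, count from 1 with both ends included.

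Blank rows (6, UBR7-KO) were dropped. The background was recovered as the pileup plus 1, over the fold enrichment, minus 1. Chromosome lengths came from GenomeInfoDb 1.38.1 (R 4.3.3). Python 3.11.15, numpy 2.4.6, pandas 2.3.3 and scipy 1.17.1 were used, and overlaps and distances were checked on simulated peaks against bedtools 2.31.1. Groups came from the genotype labels. No test between genotypes was run. Peaks and bins named in the text are, per chromosome and list, the 2 members of highest fold enrichment and the 1 of highest pileup, the most covered bins, the bins of greatest rise and fall, the pair sharing most bases and the peaks at the length limit, with additions said to be so. Planned gene lists were not analysed here, because the supplied genes are those of mouse. Alternatives changed the fold enrichment, pileup, length limit, margin, merging, overlap rule, distance, list size, bin size and chromosomes.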

Additional observations from a re-analysis of the deposited data

How the results depend on the processing

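No paired analysis was possible because there is 1 library of each genotype. The ratio of member numbers (1.38) and of covered length (1.27) stayed above 1 and within 1.5 times under every alternative run except 2. At a fold enrichment of at least 2.5 they turned to 0.777 and 0.408, and with a minimum pileup of 3 times the background the number ratio went to 2.35. Shares are given below for WT and then UBR7-KO, where they left the Wilson interval of the reported value, and the cause was not tested unless the alternative's construction gives it.

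The shares with a counterpart (45.7% and 42.1%) were 7.20% and 10.98% at 2.5-fold, 26.3% and 13.6% at 3 times the background, 40.5% and 36.7% with a length limit of 5000 bp, 49.4% and 45.4% with 20000 bp, and 42.8% and 38.2% after merging peaks within 5000 bp. They were 47.1% and 45.4% without chromosome 16. Without chromosome 22 the UBR7-KO share was 39.95%, and with no margin at the ends it was 43.5%. Stricter overlap lowered them by construction, to 31.0% and 32.3% when 50% of the counted peak had to be overlapped, 14.8% and 11.1% for 50% of both peaks, 32.4% and 32.9% for the midpoint, and 39.3% and 29.0% when a shorter peak was required. With lists of equal size the WT share was 36.6%. WT thus had the lower share at 2.5-fold, at equal size, and by midpoint or 50% of the counted peak. The filters on fold enrichment and pileup were applied to both lists, so they also removed possible counterparts.

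The shares within 10 kb of a long peak (19.03% and 10.7%) were 4.83% and 0.0% at 2.5-fold, a filter that also removes long peaks, 5.43% and 1.88% at 3 times the background, 27.9% and 24.7% with a limit of 5000 bp, 8.85% and 3.005% with 20000 bp, 20.3% and 12.1% with no margin, 21.5% and 13.2% without chromosome 16, and 16.8% and 9.25% without chromosome 22. The order reversed after merging (9.36% and 12.4%) and against long peaks of the other list (13.9% and 23.4%). A distance of 50 kb gave 42.8% and 31.3%. Leaving out chromosome 17, or the members beyond the background steps (an alternative chosen after seeing the data), kept all 6 values within these limits.

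The rank relation of the bins between the lists was 0.70, 0.64 with bins of 500 kb, and, among settings chosen after seeing the data, 0.53 at 3 times the background and 0.10 at 2.5-fold. Read totals are unknown. The lowest recovered background (1st percentile of all peaks) was 1.81 for WT against 1.16 for UBR7-KO, and this difference between the libraries cannot be told apart from the genotype.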
